A study of Homo sapiens with 6 samples.

Results

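The genes described here encode the proteasome, its activators and its assembly factors. They were taken as every entry of the expression table whose symbol is PSMA, PSMB, PSMC, PSMD, PSME or PSMG followed by a number, without pseudogenes and antisense RNAs and without PSMB8 and PSMB9. The rule gave 45 of 59008 gene symbols, and 43 of them had a mean abundance of at least 1 TPM (transcripts per 1000000, an abundance scaled for transcript length within a library). RNA came from Hey and SKOV3, established human ovarian cancer cell lines, each with untreated parental cells, polyploid giant cancer cells (PGCCs) and daughter cells, at 1 library per state. PGCCs were exposed to 500 nM paclitaxel, a microtubule-stabilizing drug, for 16 hours and collected after 3 days of recovery, although the title of the SKOV3 PGCC library gives day 7. The daughter cells had the same exposure followed by 30 days of recovery, and the titles name clone 1 in each line, so each daughter library stands for 1 clone. No state was replicated within a line, so a value of 1 line carries no error, and a comparison could be repeated only in the other line. The deposited values hold no read counts, so the counting error of a gene was not computed. In bulk RNA, fewer cells that express a gene and less of its RNA per cell cannot be told apart.

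The proteasome degrades proteins tagged with ubiquitin. Its barrel-shaped core, the 20S particle, is built of outer rings of alpha subunits, which gate the entry, and inner rings of beta subunits, some of which cut peptide bonds. The 19S regulatory particle caps the core: its base holds a ring of ATPases that unfold and thread the substrate, and its lid removes the ubiquitin chain. Interferon-induced beta subunits can replace the constitutive catalytic ones to form the immunoproteasome, which makes peptides for antigen presentation, and other activators can take the place of the cap. Dedicated chaperones assemble the core and the base and are not part of the finished particle.

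Promoter sequence from RefSeq on GRCh38.p14, running from 250 bases before to 50 bases after each transcription start, was available for 39 of the 45 genes as 46 promoters. The sequences below, except that of PSMG4, belong to genes whose TPM differed by 2-fold or more in a comparison described further on. The first set holds the interferon-stimulated response element core, GAAA repeated after any 2 bases, in PSMB10, PSME1 and PSME2, which were at least 2-fold higher in SKOV3 daughter cells than in parental cells, and in PSMG4, shown because it holds the same letters and was not. Each is printed in the direction of the gene with the match in capitals, its distance counted from the first base of the match to the start, and the match in PSME1 lies on the opposite strand.
PSMB10, chr16:67936852-67936881, minus strand, beginning 21 bases before the start: gggtaaaggcGAAAGCGAAAgcaggaagta
PSME1, chr14:24136189-24136218, plus strand, beginning at base 6 of the transcript: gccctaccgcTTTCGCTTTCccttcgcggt
PSME2, chr14:24146619-24146648, minus strand, beginning 28 bases before the start: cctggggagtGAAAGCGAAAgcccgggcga
PSMG4, chr6:3258904-3258933, plus strand, beginning 33 bases before the start: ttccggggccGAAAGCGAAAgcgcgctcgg

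The same GAAAGCGAAA letters stood in all 4 promoters. In SKOV3 daughter cells the change of PSMG4 was 0.06 on the log2(TPM + 1) scale, and the other promoters that held the motif belonged to PSMA4 and PSMB4, at 0.04 and -0.13. The motif was searched after the values of these genes had been seen. It was found on either strand in 6 of the 46 promoters (13%), those of PSMA4, PSMB4, PSMB10, PSME1, PSME2 and PSMG4, against 3.57% of all 35116 promoters. The second set holds the core of the antioxidant response element, TGACNNNGC, the sequence bound by NFE2L1 and NFE2L2, transcription factors known to raise proteasome genes. It is shown for PSMD12 and PSMG1, the former at the low end of the differences in PGCCs and the latter at the high end of those in Hey daughter cells.
PSMD12, chr17:67366703-67366772, minus strand, beginning 165 bases before the start: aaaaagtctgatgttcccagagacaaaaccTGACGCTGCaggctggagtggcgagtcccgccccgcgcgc
PSMG1, chr21:39183595-39183664, minus strand, beginning 183 bases before the start: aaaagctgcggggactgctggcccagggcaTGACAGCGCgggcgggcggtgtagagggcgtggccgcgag

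The TGACNNNGC letters, in capitals, were found in 14 of the 46 promoters (30.4%) against 13.3% of all promoters. The 14 genes were PSMA4, PSMB3, PSMC4, PSMC5, PSMD1, PSMD3, PSMD5, PSMD9, PSMD12, PSME1, PSME2, PSME4, PSMG1 and PSMG2. PSME1 and PSME2 of the first set thus hold this motif too. The ETS core CCGGAA was in 21 (45.7%) against 17.2%, and the CCAAT box in 19 (41.3%) against 34.6%. The palindrome of NRF1, a factor unrelated to NFE2L1, was found in 2 promoters (4.35%) against 1.24%. Both are overlapping promoters of PSMA4 that share 1 site, so by gene it was in 1 of 39. A GAS element, TTCNNNGAA, also searched after the values were seen, was in 7 (15.2%) against 7.66%. Motifs may overlap each other, and a match describes the letters and not a binding site.

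The subunits were abundant in all 6 libraries. Over the 31 genes of the 26S particle, 14 of the 20S core and 17 of the 19S base and lid, the median level in Hey was 136 TPM for parental cells, 153 TPM for PGCCs and 165 TPM for daughter cells. In SKOV3 it was 256, 202 and 216 TPM in the same order. Subunits with other symbols, such as SEM1 of the lid, are outside these 31 genes and are described further on. The 45 genes together held 0.665%, 0.707% and 0.83% of the table's TPM in Hey parental cells, PGCCs and daughter cells, and 1.05%, 0.919% and 0.981% in SKOV3. These shares were thus highest in the daughter cells of Hey and in the parental cells of SKOV3. The share of mitochondrially encoded transcripts also differed between libraries, from 2.64% in Hey parental cells to 14.8% in SKOV3 daughter cells. Without those transcripts the shares were 0.683%, 0.806% and 0.899% in Hey parental cells, PGCCs and daughter cells, and 1.16%, 0.992% and 1.15% in SKOV3.

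Although the subunits of the core and of each cap enter the finished particle in fixed numbers, their mRNA levels spread widely. The standard deviation of log2(TPM + 1) over the 31 genes was between 0.82 and 0.99 in the 6 libraries, against 2.08 to 2.33 over all 14988 genes with a mean of at least 1 TPM. The median of the 20S genes was above that of the 19S genes in every library, for example 184 against 130.05 TPM in Hey parental cells and 351 against 218 TPM in SKOV3 parental cells. PSMD2, the base scaffold subunit that docks ubiquitin-like proteins, was the most abundant of the 31 in all 3 Hey libraries, at 679, 470.3 and 945 TPM in parental cells, PGCCs and daughter cells. In SKOV3 it was far from the top, at 252, 294 and 216 TPM. PSMD12, a scaffold subunit of the lid, was the least abundant in 5 of the 6 libraries, and PSMD11, another lid scaffold, in Hey parental cells at 31.5 TPM. Across the 31 genes, levels on the log scale correlated between states of Hey with Pearson's r of 0.93 to 0.95, and between states of SKOV3 with 0.84 to 0.93; genes of 1 library share its scaling.

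**Figure D1:**
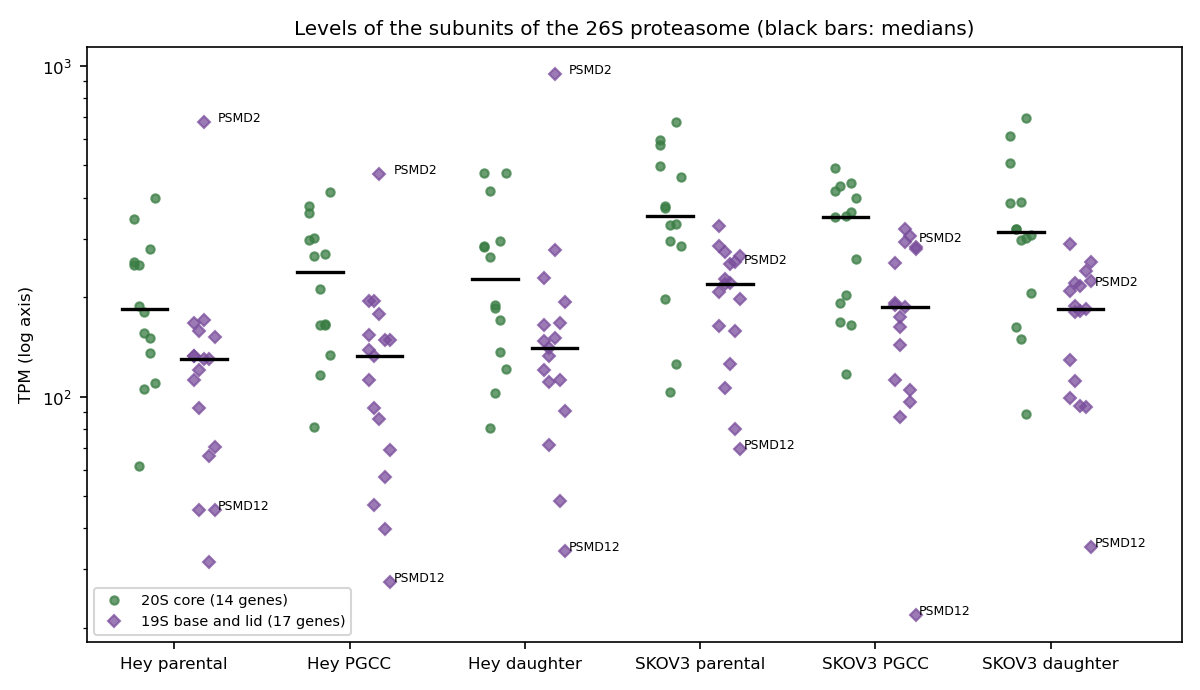
TPM (log axis) of the 14 genes of the 20S core (green circles) and the 17 of the 19S base and lid (purple diamonds) in each of the 6 libraries, with black bars at the medians. PSMD2 stands at the top of the 19S genes in Hey, from 470 to 945 TPM, and PSMD12 at the bottom in all but Hey parental cells.

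Comparing PGCCs with parental cells asks what paclitaxel and the giant-cell state did to these genes. In Hey the proteasome genes were close to their parental level. In SKOV3 most alpha-ring and lid genes were lower, while PSMB10 was higher. Changes are differences of log2(TPM + 1), and 1 marks a 2-fold change. The median change of the 43 genes in Hey was 0.06, with 25 higher and 18 lower, against 0.00 over all 14988 genes, of which 50% were higher and 47.5% lower. It was -0.01 with median-ratio scaling, 0.16 with quantile normalization and 0.21 without mitochondrial transcripts. In SKOV3 the median of the 43 genes was -0.20, with 18 higher and 25 lower. Over all genes it was 0.02, with 51.1% higher and 47% lower. Of the 14 genes of the 20S core, 12 were higher in Hey PGCCs (median 0.18) and 9 were lower in SKOV3 PGCCs (median -0.17). No proteasome gene passed 2-fold in Hey, where 12.9% of all genes did, 7.67% upward and 5.22% downward. In SKOV3 PSMB10 passed it upward (9.94% of all genes) and PSMD12 downward (4.96%). Among the 4479 genes with a mean of at least 30 TPM, a level closer to that of the subunits, 11% passed 2-fold in Hey (3.51% upward and 7.48% downward) and 11.7% in SKOV3 (6.45% upward and 5.27% downward). The medians over those 4479 genes were -0.15 in Hey, with 60.8% lower, and -0.10 in SKOV3, with 56.3% lower.

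Of the role groups with several genes, the alpha ring had the widest difference in median between the lines. In Hey 6 of the 7 were higher in PGCCs, with a median of 0.29, and in SKOV3 6 of the 7 were lower, with a median of -0.61. PSMA6 had 249.5, 358 and 286 TPM in Hey parental cells, PGCCs and daughter cells and 598, 419.9 and 615 TPM in SKOV3. Its change in PGCCs was thus 0.52 in Hey and -0.51 in SKOV3. PSMA2 had 250.3, 265 and 265 TPM in Hey and 371, 191 and 322 TPM in SKOV3. Its SKOV3 difference of -0.95 was the lowest of the ring, while in Hey its TPM hardly differed between states. PSMA4 was the 1 alpha gene lower in the PGCCs of both lines, at -0.05 in Hey and -0.61 in SKOV3. It had 280.2, 269.8 and 295 TPM in Hey and 678, 443 and 697 TPM in SKOV3. PSMA7, which was higher in the PGCCs of both lines, is described with the daughter cells. The SKOV3 values of the ring after removal of a trend with GC content are given further on.

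Of the catalytic beta genes, PSMB5, the chymotrypsin-like subunit and the main target of proteasome inhibitors used in the clinic, had 105, 116 and 103 TPM in Hey and 103, 117 and 149 TPM in SKOV3. PSMB6, the caspase-like subunit, had 150.2, 166 and 171 TPM in Hey and 126, 164 and 88.7 TPM in SKOV3. Both were slightly higher in the PGCCs of both lines, PSMB5 by 0.14 and 0.18 and PSMB6 by 0.15 and 0.38. PSMB7, the trypsin-like subunit, had 399.9, 415 and 474 TPM in Hey and 461, 400.0 and 307 TPM in SKOV3, where its change in PGCCs was -0.20. Of the other beta genes, PSMB2 had the largest change in Hey PGCCs at 0.38 and the lowest in SKOV3 at -0.22. Its levels were 61.7, 80.7 and 80.1 TPM in Hey and 197, 168 and 162 TPM in SKOV3. PSMB3 was the reverse, at -0.13 in Hey and 0.25 in SKOV3, with 180.1, 165 and 189 TPM and 295, 351 and 297 TPM.

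Of the 8 lid genes with PSMD symbols, 6 were higher in Hey PGCCs (median 0.10) and 6 were lower in SKOV3 PGCCs (median -0.54). PSMD12 was lower in both lines. It had 45.5, 27.4 and 34.1 TPM in Hey parental cells, PGCCs and daughter cells and 69.3, 21.8 and 35.04 TPM in SKOV3, so that PGCCs held the lowest level and parental cells the highest in each line. The change in PGCCs was -0.71 in Hey and -1.63 in SKOV3, the lowest value among the 43 genes in either line. It was the 1 gene of the family that passed 1.5-fold in the same direction in both lines. The share of all genes that did so was not computed. PSMD8, a lid subunit, had 171, 178 and 277 TPM in Hey and 221, 321 and 182 TPM in SKOV3, with the largest lid change in SKOV3 PGCCs at 0.54. PSMD11 had the largest of these 8 in Hey PGCCs at 0.33, below the lid subunit SEM1, outside the 8, at 0.42. PSMD11 had 31.5, 39.8 and 48.4 TPM in Hey and 158, 104 and 184 TPM in SKOV3. PSMD14, the deubiquitinase of the lid, had 158, 194 and 133 TPM in Hey and 274, 173 and 220.2 TPM in SKOV3, a change of 0.30 and -0.65 in PGCCs.

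Of the base genes, PSMC3, an ATPase of the ring, had 130.2, 85.5 and 151 TPM in Hey and 126, 187 and 93.6 TPM in SKOV3. Its PGCCs were the lowest of the 3 states in Hey, at a change of -0.60, and the highest in SKOV3, at 0.57. PSMC6, another ATPase, had 112, 112 and 120.4 TPM in Hey and 164, 112 and 99.0 TPM in SKOV3, where it had the lowest ATPase change in PGCCs, -0.54. PSMC1 had 167, 195 and 229 TPM in Hey, the largest ATPase change there at 0.22, and 329, 253 and 289 TPM in SKOV3. Pseudogenes of PSMC1 are listed at up to 21.6 TPM, so reads of PSMC1 may have been split among copies and its values are uncertain. PSMD2 differed by -0.53 and 0.22. PSMD4, a ubiquitin receptor of the base, was higher in the PGCCs of both lines, by 0.19 and 0.26, at 130.0, 148 and 167 TPM in Hey and 256, 306 and 239.7 TPM in SKOV3. PSMD1, the other large base scaffold, had 92.2, 92.1 and 111 TPM in Hey and 218, 143 and 188 TPM in SKOV3, a change of -0.61 in SKOV3 PGCCs.

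Of the base chaperones, PSMD9 had 13.7, 9.39 and 13.7 TPM in Hey and 11.9, 23.6 and 8.78 TPM in SKOV3. The PGCC level was the lowest of the 3 in Hey and the highest in SKOV3, with changes of -0.50 and 0.93 against parental cells. PSMD10, also known as gankyrin, had 71.3, 69.9 and 101.1 TPM and 96.4, 64.2 and 81.5 TPM, with changes of -0.03 and -0.58. PSMD5, the remaining base chaperone with a PSMD symbol, was slightly lower in the PGCCs of both lines, at -0.11 and -0.48. It had 66.9, 62.1 and 62.5 TPM in Hey and 75.4, 53.7 and 48.4 TPM in SKOV3. Among the activators, PSME4, a nuclear cap linked to histone degradation, had 25.9, 38.7 and 29.7 TPM in Hey, with the largest activator change in PGCCs at 0.56, and 29.5, 23.7 and 33.5 TPM in SKOV3, at -0.30. PSME3, the nuclear relative of PSME1 and PSME2, had 137, 161 and 184 TPM in Hey and 191, 128 and 188 TPM in SKOV3, and its change in SKOV3 PGCCs was -0.58.

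**Figure D2:**
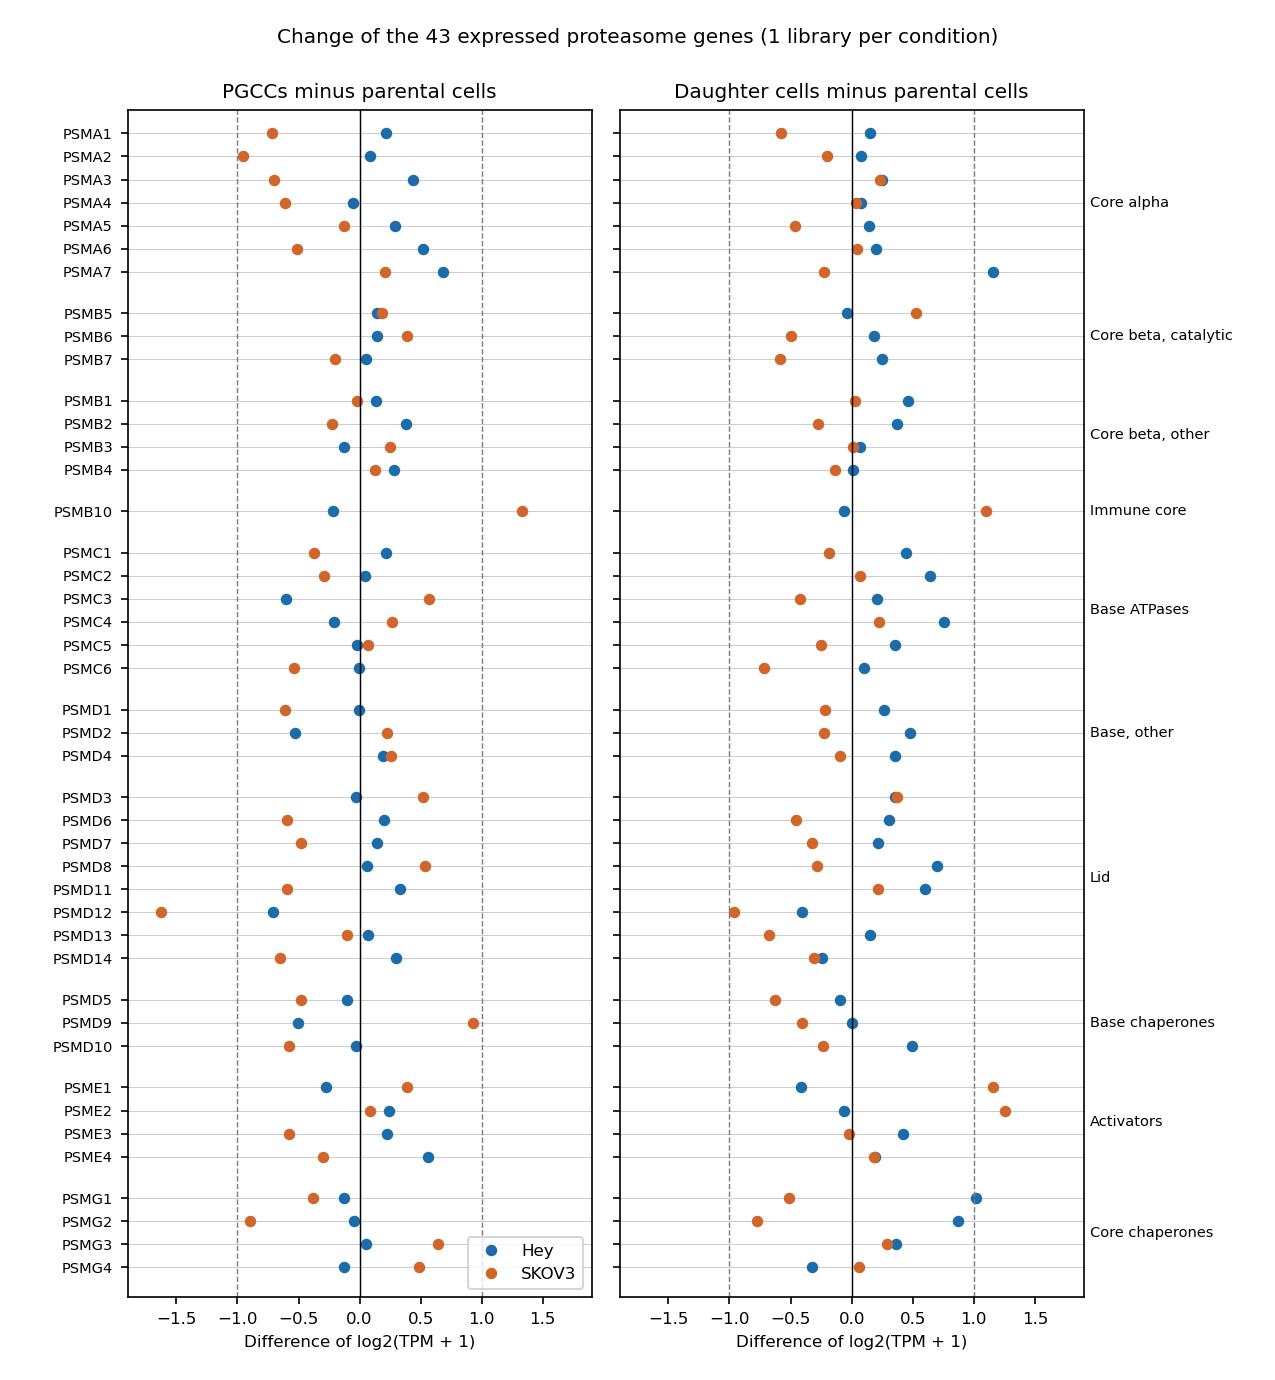
Difference of log2(TPM + 1) of the 43 genes against parental cells, PGCCs on the left and daughter cells on the right, with Hey in blue and SKOV3 in orange; genes are grouped by role and dashed lines mark 2-fold. On the left PSMD12 lies at the low end in both lines and PSMB10 at the high end in SKOV3; on the right most Hey points lie above 0 and PSMB10, PSME1 and PSME2 pass 2-fold in SKOV3.

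In PGCCs against parental cells 8 were higher in both (25.2% of all genes were), 8 were lower in both (22.3%) and 27 were opposite (48.6%). The 8 higher genes were PSMA7, PSMB4, PSMB5, PSMB6, PSMD4, PSMD8, PSME2 and PSMG3, and the 8 lower were PSMA4, PSMC6, PSMD1, PSMD5, PSMD10, PSMD12, PSMG1 and PSMG2. None passed 2-fold in both lines, where 0.834% of all genes did upward and 0.834% downward. The test across both lines used limma with state and cell line as terms, 2 residual degrees of freedom and Benjamini-Hochberg adjustment over all 14988 genes. Its eBayes step draws the spread of each gene toward that of all genes, so its p-values do not rest on those 2 degrees alone. The fit called none of the 43 at an adjusted p under 0.05 in PGCCs against parental cells, where 0.02% of all genes passed. PSMD12 had a change of -1.17 (SE 0.40) with an adjusted limma p of 1. It was the 1 gene under 0.05 before adjustment, at an unadjusted limma p of 0.0207, where 1.57% of all genes were in that direction and 1.16% in the other.

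The changes in SKOV3 PGCCs varied with the base composition of the transcripts. Across the 43 genes, the change correlated with the GC content of the GENCODE canonical transcript with Pearson's r of 0.861 and Spearman's rho of 0.851 in SKOV3, and with -0.19 and -0.21 in Hey. Over all 13468 genes with a known GC content, rho was 0.72 in SKOV3 and -0.04 in Hey. All points of a line share the same 2 libraries. Of the 17 proteasome genes under 45% GC, which include 6 of the 7 alpha-ring genes, 0 were higher in SKOV3 PGCCs and their median was -0.58, against -0.39 for all genes of that range. The 20 genes from 45% to 55% had a median of 0.11, against 0.09. The 6 genes at 55% or more, PSMB6, PSMB10, PSMC3, PSMD3, PSMD8 and PSMG3, were all higher, with a median of 0.55 against 0.75. PSMD12, at 37.5%, and PSMB10, at 61.7%, lie near the ends of the range.

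When a trend with GC content and transcript length fitted over all genes was subtracted, the SKOV3 median went from -0.20 to -0.06 and the Hey median from 0.06 to 0.03. PSMD12 was then at -1.06 in SKOV3 and -0.62 in Hey, so it kept its 2-fold difference in SKOV3. PSMB10 was at 0.50 and no longer passed 2-fold. In SKOV3 PSMA2 went from -0.95 to -0.40, PSMA6 from -0.51 to -0.23, PSMC3 from 0.57 to 0.13 and PSMD8 from 0.54 to -0.0035. Of the other alpha-ring genes, PSMA1, PSMA3, PSMA4 and PSMA7 were then at -0.29, -0.22, -0.29 and 0.03. PSMA5 turned from -0.13 to 0.44.

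**Figure D3:**
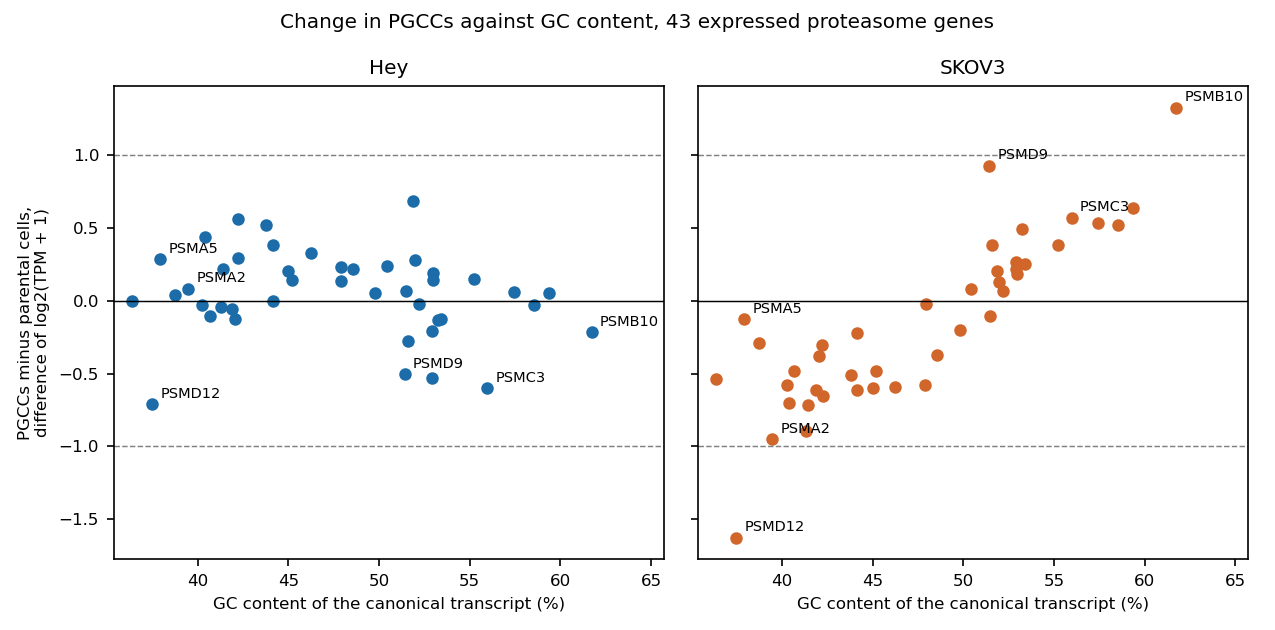
Change in PGCCs against parental cells, as a difference of log2(TPM + 1), of the 43 genes against the GC content of the canonical transcript in percent, for Hey (left, blue) and SKOV3 (right, orange); dashed lines mark 2-fold. In SKOV3 the points run from PSMD12 at 37.5% to PSMB10 at 61.7%, with r of 0.861, and in Hey they scatter around 0 with r of -0.19.

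Comparing daughter cells with parental cells asks what remained after 30 days of recovery; it shares the parental libraries with the comparison above. In Hey daughter cells 35 of the 43 genes were higher than in parental cells, spread over the core, base and lid. In SKOV3 daughter cells 27 of the 43 were lower, while PSMB10, PSME1 and PSME2 were higher by more than 2-fold. The Hey median was 0.22 against 0.05 over all genes, and 53.9% of all genes were higher and 41.7% lower by any amount. The SKOV3 median was -0.21 against 0.15 over all genes, where 58.8% were higher and 39.9% lower by any amount. Over all 4479 genes with a mean of at least 30 TPM the medians were 0.05 in Hey and -0.04 in SKOV3, where 52.9% were lower. All 7 alpha-ring genes (median 0.15), all 6 base ATPases (median 0.40) and 15 of the 17 genes of the 19S particle (median 0.36) were higher in Hey daughter cells. In SKOV3 13 of the 17 were lower, with a median of -0.25. The CCT chaperonin, another large cytosolic complex described further on, had 7 of 8 genes higher in Hey daughter cells (median 0.19). In SKOV3 daughter cells 6 of its 8 genes were lower (median -0.34). Over the 43 proteasome genes, the Hey median remained above 0 and the SKOV3 median below 0 under each scaling tried. The Hey value was 0.09 with median-ratio scaling.

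In Hey daughter cells 2 genes passed 2-fold, both upward (6.31% of all genes), and 0 downward (3.73%). PSMA7, an alpha-ring subunit, had 187, 301 and 420.0 TPM in Hey parental cells, PGCCs and daughter cells and 377, 435 and 321 TPM in SKOV3. Its change was 1.16 in Hey daughter cells and -0.23 in SKOV3 daughter cells, and it was 0.98 in Hey after the trend with GC content was subtracted. PSMG1, a chaperone of alpha-ring assembly, had 9.35, 8.49 and 19.96 TPM in Hey and 29.1, 22.1 and 20.04 TPM in SKOV3. Its change was 1.02 and -0.51; the Hey value fell short of 2-fold with median-ratio scaling (0.90), quantile normalization (0.85) and GC trend removal (0.97). PSMG2, which forms a dimer with PSMG1, had the same directions, with 123, 119 and 225 TPM in Hey and 190.3, 102 and 111 TPM in SKOV3, a change of 0.87 and -0.78. The other chaperone pair showed smaller changes. PSMG3 had 17.8, 18.5 and 23.2 TPM in Hey and 16.1, 25.6 and 19.9 TPM in SKOV3, and PSMG4 had 10.8, 9.73 and 8.38 TPM and 15.2, 21.7 and 15.9 TPM. In daughter cells PSMG3 differed by 0.37 and 0.29, and PSMG4 by -0.33 and 0.06.

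Among the ATPases PSMC4 had the largest change in Hey daughter cells, 0.75, with 65.96, 57.1 and 112 TPM in Hey and 79.8, 96.1 and 93.3 TPM in SKOV3. PSMC6 had the lowest in both lines, 0.10 and -0.72. Of the 8 lid genes with PSMD symbols, PSMD8 had the largest change in Hey daughter cells at 0.70. This was below the lid subunit SEM1, outside the 8, at 2.10. The largest lid change in SKOV3 daughter cells was that of PSMD3, a lid scaffold, at 0.37. PSMD3 had 70.5, 69.0 and 90.7 TPM in Hey and 197, 283 and 256 TPM in SKOV3. PSMD12 was the lowest lid gene here as well, at -0.40 and -0.96. Of the beta genes, PSMB1 had 343, 378 and 474 TPM in Hey, a change of 0.46 in daughter cells, and 499, 491 and 508 TPM in SKOV3, a change of 0.03. PSMB4 had 136, 165 and 137 TPM in Hey and 332, 363 and 302 TPM in SKOV3. The catalytic genes PSMB5, PSMB6 and PSMB7 differed by -0.04, 0.18 and 0.24 in Hey daughter cells and by 0.53, -0.50 and -0.58 in SKOV3 daughter cells. The SKOV3 values of PSMB5 and of its catalytic partners thus had opposite signs.

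In SKOV3 daughter cells 3 genes passed 2-fold upward (15.1% of all genes) and 0 downward (6.34%). With median-ratio scaling and with quantile normalization PSMD12 also passed it downward. Among genes with a mean of at least 30 TPM, 6.5% passed 2-fold upward and 5.8% downward in SKOV3 daughter cells, and 3.39% and 2.66% in Hey daughter cells. PSME1 and PSME2 form the cytosolic activator that interferon gamma is known to induce, and PSMB10 is the immune counterpart of PSMB7. PSME1 had 169, 139 and 127 TPM in Hey parental cells, PGCCs and daughter cells and 157, 205 and 351 TPM in SKOV3. PSME2 had 161, 191 and 154 TPM in Hey and 145, 153 and 348 TPM in SKOV3. Both were highest in SKOV3 daughter cells, with changes of 1.16 and 1.26 against parental cells. In Hey daughter cells the changes were -0.41 and -0.06. PSMB10 had 11.6, 9.84 and 11.0 TPM in Hey and 9.36, 24.99 and 21.2 TPM in SKOV3, so that both treated SKOV3 libraries were above the other 4. Its change in SKOV3 daughter cells was 1.10, and -0.06 in Hey. The PSMB10 call was lost with median-ratio scaling (0.89), quantile normalization (0.84) and GC trend removal (0.91), that of PSME1 with median-ratio scaling (0.94), and that of PSME2 under none of the alternatives that kept the 2-fold threshold.

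The other activators PSME3 and PSME4 differed by -0.02 and 0.18 in SKOV3 daughter cells. The immune core genes that the symbol rule left out were also measured. PSMB8, the immune counterpart of PSMB5, had 29.7, 28.2 and 21.4 TPM in Hey and 53.7, 79.7 and 99.3 TPM in SKOV3, a change of 0.88 in SKOV3 daughter cells. PSMB9, that of PSMB6, had 3.84, 3.69 and 7.22 TPM in Hey and 11.3, 12.5 and 51.2 TPM in SKOV3, a change of 2.08. Both had their highest level in SKOV3 daughter cells. The tissue-restricted core genes were at or near 0. PSMA8, the testis form of an alpha subunit, was listed at 0 in all 6 libraries, and PSMB11, the thymus form of PSMB5, did not exceed 0.0561 TPM.

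**Figure D4:**
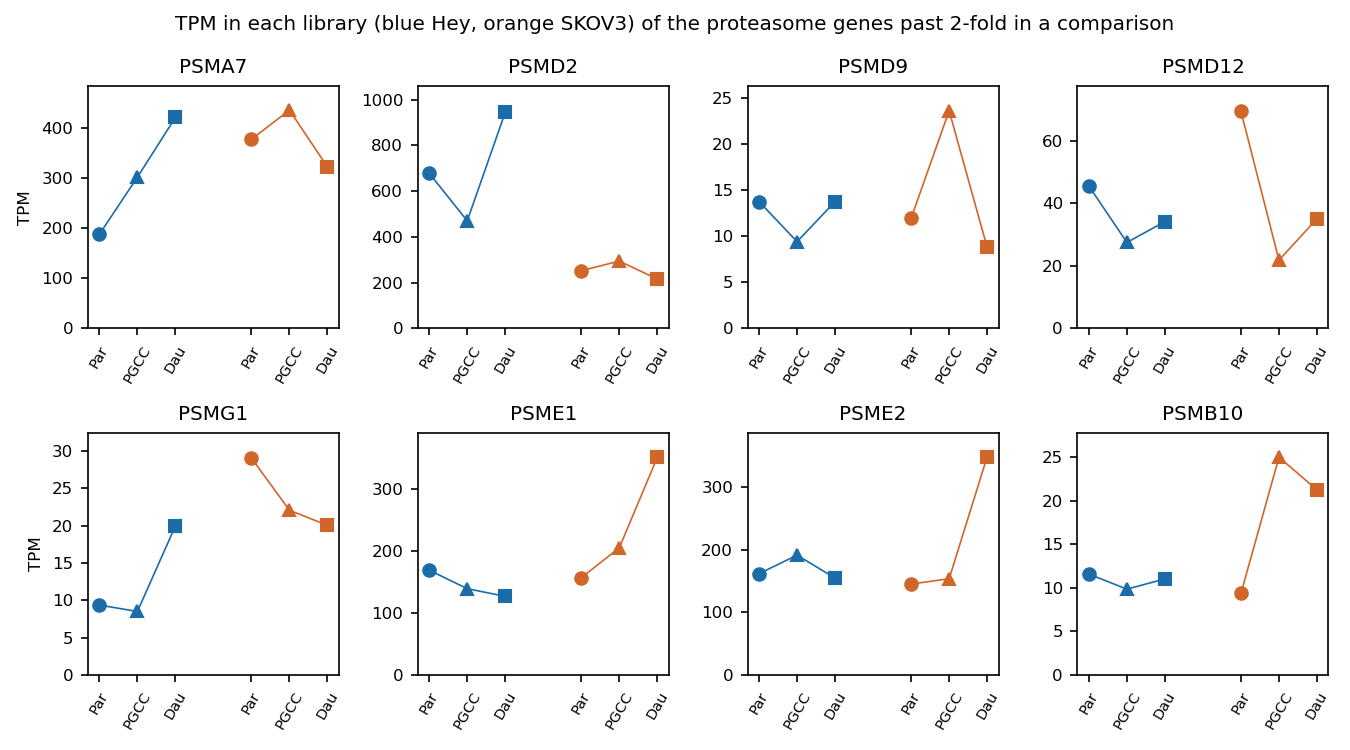
TPM in each library of the 8 genes that passed 2-fold in at least 1 comparison within a line, for parental cells (Par, circles), PGCCs (triangles) and daughter cells (Dau, squares) of Hey (blue) and SKOV3 (orange), each panel with its own axis from 0. PSMD12 is lowest in the PGCCs of both lines, PSME1 and PSME2 are highest in SKOV3 daughter cells at 351 and 348 TPM, and PSMG1 is highest among the Hey libraries in daughter cells.

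In daughter against parental cells 11 genes were higher in both lines (30.8% of all genes), 3 were lower in both (16%) and 29 were opposite (47.9%). The 3 lower genes were PSMD5, PSMD12 and PSMD14. None passed 2-fold in both lines, as did 1.19% of all genes upward and 0.387% downward. The limma fit called none of the 43 at an adjusted p under 0.05 (0.0133% of all genes) and 0 at an unadjusted p under 0.05, where 2.43% of all genes were higher and 0.961% lower. The smallest limma p was that of PSMD12, at 0.127 unadjusted, with a change of -0.68 (SE 0.40).

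Comparing PGCCs with daughter cells asks how the giant cells differed from their progeny; it uses the same PGCC and daughter libraries as above. In Hey 30 of the 43 genes were lower in PGCCs. The 19S genes led this: 16 of the 17 were lower, with a median of -0.28, while the 20S genes had a median of 0.01. The CCT chaperonin, described further on, was also lower in Hey PGCCs, for 8 of 8 genes with a median of -0.65. In SKOV3 22 of the 43 proteasome genes were higher and 21 lower. The medians over the 43 were -0.17 in Hey, against -0.03 over all genes, and 0.04 in SKOV3, against -0.12. Over all 4479 genes with a mean of at least 30 TPM the medians were -0.17 in Hey, with 60.6% lower, and -0.06 in SKOV3. The SKOV3 median of the proteasome genes turned to -0.08 without mitochondrial transcripts. It turned to -0.13 over those proteasome genes with a mean of at least 30 TPM. By any amount, 51.9% of all genes were lower in Hey PGCCs and 45.6% higher, and 56.3% were lower in SKOV3 PGCCs and 42.4% higher.

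In Hey 2 genes were lower in PGCCs by 2-fold or more (9.95% of all genes) and 0 were higher (8.13%). PSMG1 was at -1.14 and PSMD2 at -1.01, just past the threshold. Both had their lowest Hey level in PGCCs and their highest in daughter cells. The PSMD2 call was lost with median-ratio scaling (-0.95), quantile normalization (-0.97), without mitochondrial transcripts (-0.93) and after GC trend removal (-0.85), and the PSMG1 call with quantile normalization (-0.95). All 6 ATPases were lower in Hey PGCCs, from -0.96 for PSMC4 to -0.10 for PSMC6. PSMD14 was the 1 gene of the 19S particle that was higher, at 0.54.

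In SKOV3 1 gene was higher in PGCCs by 2-fold or more (9.25% of all genes) and 1 was lower (14.6%). Among genes with a mean of at least 30 TPM these shares were 8.68% and 8.53%, and in Hey 4.55% and 11.8%. Across the 43 genes the SKOV3 change varied with GC content here too, with Pearson's r of 0.508 and Spearman's rho of 0.548. Over all genes with a known GC content rho was 0.455. In Hey r was -0.17 and rho -0.19 across the 43. PSMD9 was higher at 1.33, and 1.35 after GC trend removal. PSME2 was lower at -1.18 and PSME1 was at -0.77, and at -1.32 and -0.91 after that removal. PSMC3 and PSMB6 lay just under the threshold, at 0.99 and 0.88, and at 0.71 and 0.50 after it. PSMA3 was then at -0.64. Before the removal PSMA3 had the lowest alpha-ring value at -0.93, with 156, 211 and 186 TPM in Hey and 329.8, 202 and 387 TPM in SKOV3. Between the lines, 4 genes were higher in the PGCCs of both (17.2% of all genes), 12 were lower in both (27.1%) and 27 were opposite (52.2%). None passed 2-fold in both lines, as did 1.07% of all genes upward and 1.21% downward. The limma fit called 0 of the 43 at an adjusted p under 0.05, as of all 14988 genes (0%), and 0 at an unadjusted p under 0.05, where 1.98% of all genes were higher and 3.08% lower. The smallest limma p was 0.201, that of PSMD11.

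The medians of the differences between the cell lines were larger than those between the states of a line. For 19 of the 43 genes all 3 SKOV3 libraries were above all 3 Hey libraries (31.8% of all genes), and for 1, PSMD2, all 3 Hey libraries were above (12.8%). The median difference, Hey minus SKOV3, was -0.63 for parental cells, -0.45 for PGCCs and -0.33 for daughter cells, against -0.29, -0.35 and -0.38 over all genes. Lower in Hey by 2-fold or more were 14 genes among parental cells (24.2% of all genes), 11 among PGCCs (29.6%) and 9 among daughter cells (29.5%). Higher in Hey by that amount were 1 gene among parental cells (11.5%), 0 among PGCCs (13.4%) and 2 among daughter cells (12.3%). PSMD11 differed by -2.29, -1.37 and -1.91 in the 3 states, and PSMD3 by -1.47, -2.02 and -1.49. PSMD2 differed in the other direction, by 1.42, 0.67 and 2.13. These differences are given as values, with no test.

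Other genes that work with the proteasome were counted from lists by function. Of 15 partners with other symbols, 11 were higher and 4 lower in Hey PGCCs (median 0.15), and 7 were higher and 8 lower in SKOV3 PGCCs (median -0.02), with none past 2-fold in both lines. SEM1, the small subunit of the lid, had 111, 149 and 480.1 TPM in Hey and 237, 233 and 265 TPM in SKOV3, a change of 2.10 in Hey daughter cells. POMP, the maturation factor of the core, had 220.4, 285 and 287 TPM in Hey and 371, 192 and 133 TPM in SKOV3, where its change in daughter cells was -1.47. ADRM1, a ubiquitin receptor, had 77.4, 85.9 and 129 TPM in Hey and 86.5, 145 and 67.0 TPM in SKOV3. PSMF1, an inhibitor of the core, had 50.8, 51.0 and 61.1 TPM in Hey and 51.3, 85.5 and 50.7 TPM in SKOV3. In PGCCs against parental cells ADRM1 differed by 0.15 and 0.73, and PSMF1 by 0.00 and 0.73.

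Of 10 regulators of proteasome genes, 7 were higher in Hey PGCCs and 5 in SKOV3 PGCCs. NFE2L1 had 88.6, 148 and 74.6 TPM in Hey and 108, 158 and 132 TPM in SKOV3, a change of 0.74 and 0.54 in PGCCs, which held the highest level in each line. NFE2L2 had 115, 129.8 and 65.0 TPM in Hey and 142, 97.3 and 135 TPM in SKOV3, with changes of 0.18 and -0.55. Of 16 genes of ubiquitin, its activating enzymes and shuttle factors, 14 were lower in Hey PGCCs (median -0.30) and 8 in SKOV3 PGCCs (median 0.09). The COP9 signalosome, whose subunits are related to the lid, had a median over 10 genes of -0.37 for Hey PGCCs and -0.12 for those of SKOV3. The CCT chaperonin had 8 of 8 genes lower in Hey PGCCs (median -0.40) and 6 of 8 in SKOV3 PGCCs (median -0.34). In PGCCs against daughter cells the CCT medians were -0.65 in Hey and 0.12 in SKOV3, and those of COP9 -0.21 and -0.06. In daughter against parental cells the CCT medians were 0.19 in Hey and -0.34 in SKOV3, and those of COP9 -0.08 and -0.14. None of these lists had a gene past 2-fold in the same direction in both lines.

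The labelled cell type was checked by markers. All 7 epithelial and ovarian cancer markers reached 1 TPM in some library, with summed levels of 1087 to 2584 TPM, carried mainly by keratins. MUC16 was at most 0.0322 TPM and EPCAM at most 1.43 TPM in the Hey libraries, and EPCAM was at 68.8, 43.6 and 8.15 TPM in SKOV3 parental cells, PGCCs and daughter cells. Of 4 leukocyte markers only CD68 reached 1 TPM, with summed levels of 1.503 to 69.7 TPM and PTPRC, CD3E and LYZ under 1 TPM in all libraries. CD68 was at 17.1, 20.03 and 0.840 TPM in the SKOV3 libraries in that order. Of 3 endothelial markers only CDH5 did (summed 0.0622 to 48.8 TPM), and of 5 fibroblast markers 3 did (summed 0.0813 to 21.9 TPM). Among 35 pseudogenes with proteasome symbols 12 were above 0 and 2, both copies of PSMC1, reached 1 TPM. All 5 antisense RNAs, of which PSMA3-AS1 was the highest at 47.8 TPM, reached 1 TPM, and whether the quantification used strand is not stated, so PSMA3, PSMD6 and PSMG3 may share reads with theirs.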

How the data were processed

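Total RNA of the 6 libraries was sequenced and, per the labels and the methods of the study, reads were quantified by the authors on the human transcriptome (hg38). The submitters' processing notes name fastp and Salmon 0.14.1. The authors deposited TPM values, 1 per gene symbol and library; how transcripts were summed, the annotation release and the bias options are not given in the sources used here. TPM is a share of each library, so a change in a few abundant transcripts moves all others. All 6 value columns were used (0 left out).

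Differences of log2(TPM + 1) were computed within each line for genes with a mean of at least 1 TPM, and 2-fold was the threshold. Such differences understate the change of low genes. Pairs of single libraries were given no p-value. limma 3.58.1 (R 4.3.3) was fitted across all 6 libraries with eBayes and an intensity trend. Its p-values rest on the disagreement between the lines for each gene, drawn by eBayes toward a spread shared over all genes. GC content and length are those of GENCODE 44 canonical transcripts (13468 of 14988 genes); their trend was removed by lowess (fraction 0.3, 2 passes). Motifs were searched on both strands. Python 3.11.15, numpy 2.4.6, pandas 2.3.3 and statsmodels 0.14.6 were used. The steps were run on simulated data with little noise and the same large changes in both lines. That run checks the code and does not show how the steps perform on these data.

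Alternatives were a pseudocount of 0.1, a filter at a mean of 5 TPM or none, median-ratio scaling, quantile normalization, leaving out mitochondrial transcripts, thresholds of 1.5-fold and 3-fold, and trend removal. A filter at 30 TPM and the interferon-stimulated response element and TTCNNNGAA motifs were added after seeing the data. The genes and lists were chosen with earlier results of these data known. Values are given for the catalytic, immune, activator and core chaperone genes, for the extremes of each role group, and for each gene past 2-fold. Genes of the groups outside this rule were named after their values were seen.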

Additional observations from a re-analysis of the deposited data

Results flagged for a closer look

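The genes below had changes of opposite sign in the lines, each of at least 0.5 on the log2(TPM + 1) scale. With 1 library per condition these differences between the lines were not tested. In PGCCs against parental cells the Hey change minus the SKOV3 change was 1.03 for PSMA6, -1.17 for PSMC3 and -1.43 for PSMD9, so 3 of the 43 proteasome genes (6.98%) met this, against 9.58% of all genes. In daughter against parental cells it was 1.53 for PSMG1 and 1.65 for PSMG2, 2 genes (4.65%) against 8.87%. In PGCCs against daughter cells it was -1.80 for PSMC3, -1.45 for PSMD8 and -1.83 for PSMD9, 3 genes (6.98%) against 14.02%. After removal of the trend with GC content and length, PSMA6 was at 0.37 in Hey and -0.23 in SKOV3, PSMC3 in PGCCs against parental cells at -0.58 and 0.13, PSMD9 at -0.496 and 0.76, PSMG1 at 0.97 and -0.43, and PSMG2 at 0.80 and -0.61. In PGCCs against daughter cells PSMC3 was then at -0.67 and 0.71, PSMD8 at -0.48 and 0.46, and PSMD9 at -0.37 and 1.35. Only PSMG2 and, in PGCCs against daughter cells, PSMC3 of these still reached 0.5 in both lines.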

How the results depend on the processing

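All values rest on 1 library per condition, so no library could be left out and a value within a line has no error. No paired analysis was possible because no replicate number pairs libraries, with 1 library per state in each line. The cell line was a term of the limma fit except in the setting without it, and the fit called 0 of the genes at an adjusted p under 0.05 in the 3 comparisons under all 6 of its settings. The TPM values hold no read counts, so what depth limits was not computed. The medians over the 43 genes moved by more than 0.1 on the log2 scale, or turned in sign beyond that, as follows. With median-ratio scaling the median for daughter against parental cells came to 0.087 in Hey and -0.43 in SKOV3, and in PGCCs against daughter cells 0.19 in SKOV3. With quantile normalization the median in PGCCs against daughter cells of Hey was -0.032. Without mitochondrial transcripts it was 0.21 in Hey PGCCs against parental cells, and it turned to -0.076 in SKOV3 PGCCs against daughter cells. With the GC and length trend removed it was -0.062 in SKOV3 PGCCs against parental cells. Over the proteasome genes with a mean of at least 30 TPM, a filter chosen after seeing the data, it turned to -0.13 in SKOV3 PGCCs against daughter cells. Without mitochondrial transcripts the share of TPM held by the genes was 0.806% in Hey PGCCs, 1.16% in SKOV3 parental cells, 0.992% in SKOV3 PGCCs and 1.15% in SKOV3 daughter cells.

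The number of genes past the threshold also moved. Shares of all genes at 1.5-fold and 3-fold, and under the other scalings and trend removal, were not computed. The counts under those settings therefore describe the proteasome genes only. With a 1.5-fold threshold it was 3 in Hey, 13 in SKOV3 and 1 in both lines for PGCCs against parental cells, 7 and 8 for daughter against parental cells in Hey and SKOV3, and 7 and 11 for PGCCs against daughter cells. With a 3-fold threshold it was 1 for SKOV3 PGCCs against parental cells and 0 for daughter against parental cells and PGCCs against daughter cells in either line. With median-ratio scaling it was 1 for Hey daughter against parental cells, 1 for Hey PGCCs against daughter cells and 4 for SKOV3 PGCCs against daughter cells. With quantile normalization these were 1, 0 and 4. Without mitochondrial transcripts it was 1 for Hey PGCCs against daughter cells. With the trend removed it was 1 for SKOV3 PGCCs against parental cells, 0 for Hey daughter against parental cells and 1 for Hey PGCCs against daughter cells. At a mean of at least 30 TPM, which tests fewer genes, it was 1 for SKOV3 PGCCs against parental cells, and 1 in Hey for daughter against parental cells and PGCCs against daughter cells, and 1 in SKOV3 for PGCCs against daughter cells. Apart from the fold thresholds, the trend and the filter, the cause of these moves was not tested. Of 55 values of single genes under settings other than filters, which cannot alter them, 41 kept the call, 14 lost it and 0 turned the direction. Those values cover only genes called in the main setting, so gained calls are not among them. In SKOV3, median-ratio scaling added PSMA2 in PGCCs against parental cells. That scaling and quantile normalization added PSMD12 in daughter against parental cells and PSMC3 in PGCCs against daughter cells. In the latter comparison median-ratio scaling also added PSMB6. Quantile normalization and leaving out mitochondrial transcripts added PSMA3 there. Leaving out mitochondrial transcripts moved the median over all genes to 0.11 in Hey PGCCs and to 0.11 in Hey daughter cells against parental cells; the medians over the proteasome genes were 0.10 and 0.18 above it.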
